A study of Homo sapiens with 4 samples.

Results

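The transcripts described here are those of the Mediator complex and its kinase module: 32 genes chosen by symbol, all of which were found once among the 69222 gene identifiers of the count files. They lie on 14 chromosomes, and 30 of them had enough reads to be tested among 20319 tested genes. The libraries hold poly(A) RNA of HEK293T, a derivative of the embryonic kidney line HEK293 to which the large T antigen of SV40 was added. The knockdown group, shRPRD1B, was transduced with a lentivirus that carries a short hairpin RNA against RPRD1B (2 libraries), and the control group, shCtrl, with a lentivirus that carries a control hairpin (2 libraries). Both groups are of the same line and both were transduced. Only 1 hairpin label stands for each group, its sequence is not given in the sources used here, and nothing says that the 2 libraries of a group came from separate cultures, so that every p-value measures the spread between these libraries, which may be technical.

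Mediator is the large coactivator that carries signals from DNA-bound transcription factors to RNA polymerase II at promoters. Its head and middle modules contact the polymerase and the general initiation factors, its tail module binds most activators, and MED14 runs through the complex as a scaffold. A separable kinase module, made of cyclin C, either CDK8 or its paralogue CDK19, MED12 and either MED13 or MED13L, docks on this core and blocks its contact with the polymerase. RPRD1B, the gene targeted in these cells, encodes a protein that binds the phosphorylated C-terminal domain of the polymerase's largest subunit, a tail that Mediator also contacts.

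The libraries held 65572391 and 54722140 counts in shRPRD1B and 47732913 and 48494258 counts in shCtrl. RPRD1B itself stood at 27.2 and 35.5 CPM (counts relative to library size, with TMM factors) in shRPRD1B, against 50.4 and 50.1 CPM in shCtrl, the direction of the labels (log2 fold change -0.68 ± 0.16 SE, adjusted p = 0.448 with edgeR and 0.0467 with DESeq2). Of the markers known from this line, the neurofilament genes NEFL, NEFM and INA and the kidney gene PAX2 were detected, while LHX1 had 11 to 15 counts in shRPRD1B and 16 to 17 counts in shCtrl. INA was higher in both knockdown libraries (log2 fold change 0.70, adjusted p = 0.41 with edgeR and 0.0236 with DESeq2). NEFM was lower in both (-0.30, edgeR adjusted p = 0.706), and of the 5 markers 2 were positive and 3 negative. Markers of leukocytes summed to 0.0763 and 0.274 CPM in shRPRD1B and to 0.0422 and 0 CPM in shCtrl, and those of endothelium to at most 0.122 CPM in shRPRD1B and 0.232 CPM in shCtrl. Those of airway or gut epithelium summed to 1.755 and 1.277 CPM in shRPRD1B and to 2.449 and 2.219 CPM in shCtrl. The fibroblast markers summed to 22.5 and 20.9 CPM in shRPRD1B and 35.2 and 30.5 CPM in shCtrl, almost all of it COL1A1, and the part of such differences in the Mediator values was not tested. Over the 30 tested Mediator genes, the log2 ratio between the libraries of a group had an SD of 0.28 for shRPRD1B and 0.13 for shCtrl.

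Across the complex, most Mediator transcripts differed little between knockdown and control cells. The largest difference in size, and the smallest p, was that of CCNC, the gene of cyclin C, which did not pass the edgeR threshold. With the quasi-likelihood test of edgeR and Benjamini-Hochberg adjustment over all tested genes, 0 of the 30 members passed an adjusted p of 0.05, where 0.0689% of all tested genes passed (0.0295% higher and 0.0394% lower in shRPRD1B). At an unadjusted p under 0.05 there was 1 member, CCNC, lower in shRPRD1B, and 0 were higher, where 3.94% of all tested genes were lower, 3.55% higher and 7.49% either. At that threshold 1 of 30 is thus no larger a share than that of all tested genes. DESeq2 called 1 member lower, again CCNC, and 0 higher, where it called 0.561% and 0.62% of all tested genes, and limma voom called 0 with 1 at an unadjusted p under 0.05. The median log2 fold change was 0.03 over the members and 0.00 over all tested genes (0.0036), and 16 members were positive and 14 negative. Of the 30 members, 24 had an absolute log2 fold change under 0.2, as had 50.4% of all tested genes. These shares are not of genes with like counts. Every tested member had at least 5.53 CPM in each library, whereas only 11634 genes had at least 5 CPM in 2 libraries. The shRPRD1B libraries lay entirely above the shCtrl libraries for 5 members and entirely below them for 4, so that 9 of 30 did not overlap, against 20.3% higher, 20.6% lower and 40.9% either way of all tested genes.

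**Figure D1:**
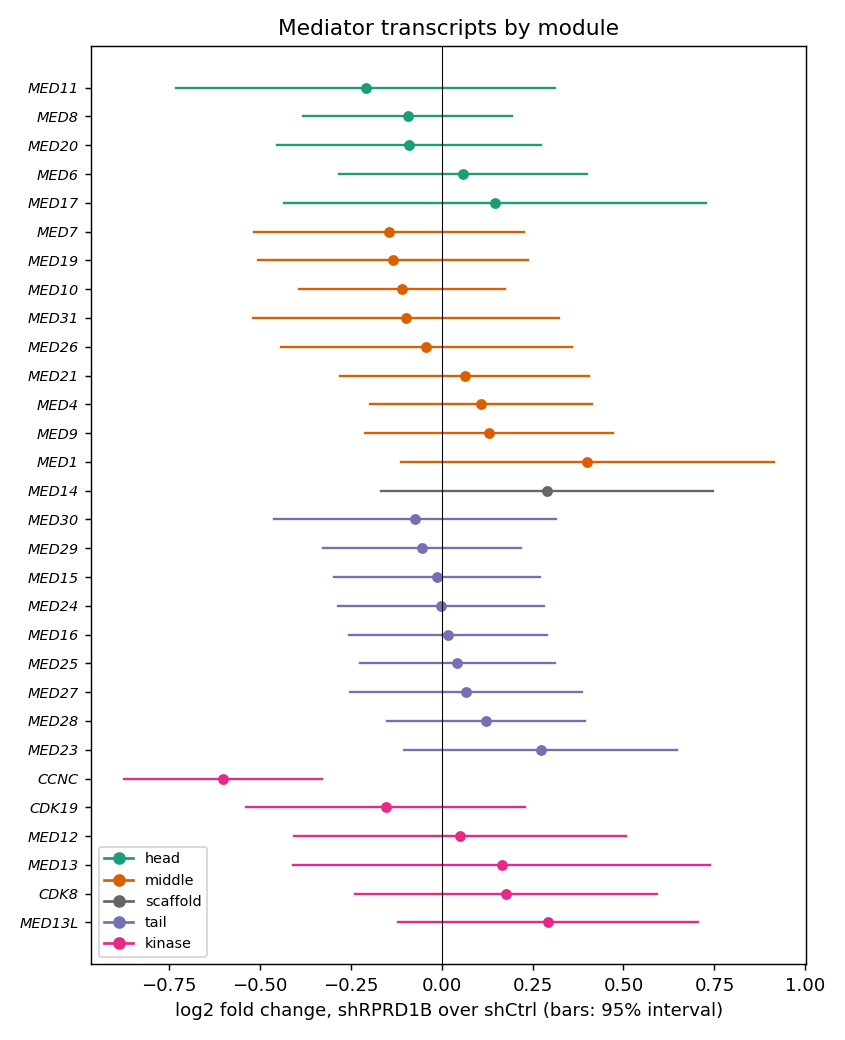
Log2 fold change of each tested Mediator transcript, shRPRD1B over shCtrl, with its 95% interval from the edgeR fit (2 libraries a group), in the order head, middle, scaffold, tail and kinase module. The interval of CCNC, from -0.87 to -0.33, lies below 0, and those of the other 29 members include 0.

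The precision of these values was limited by the spread between libraries rather than by the counts. The 95% intervals, which are not adjusted for the number of genes, extended between 0.268 and 0.58 to either side on the log2 scale. A smaller change in a single member could thus not be seen even before adjustment. The threshold on adjusted p asks for more, since CCNC at -0.60 did not pass it with edgeR (adjusted p = 0.32). The number of called members also turned on single knockdown libraries, as did that of all genes. Without shRPRD1B 1 edgeR called 9 of 30 members, against 29.1% of all tested genes, and without shRPRD1B 2 it called 2 of 30, against 10.4%. In these fits the remaining knockdown library has no replicate and is assumed to vary like the controls. The members called without shRPRD1B 1 were CCNC, MED1, MED11, MED12, MED13, MED13L, MED14, MED23 and CDK8, and those called without shRPRD1B 2 were CCNC and CDK19. Without shCtrl 1 or shCtrl 2 it called 0 members, with 1 and 0 at an unadjusted p under 0.05, against 0.255% and 0.246% of all tested genes called. CCNC was the only member called in both fits that leave out a knockdown library.

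The kinase module held the widest range of log2 fold changes, from -0.60 to 0.29, because of CCNC. Without CCNC it ran from -0.15 to 0.29, a narrower range than the -0.15 to 0.40 of the middle module. CCNC encodes cyclin C, which activates CDK8 and CDK19. Its transcript had 45.1 and 44.5 CPM in shRPRD1B, against 67.0 and 68.9 CPM in shCtrl, from 2437 to 2957 reads a library in shRPRD1B and 3175 to 3354 in shCtrl. The groups were far apart and each pair of libraries was tight, 44.8 ± 0.474 CPM in shRPRD1B and 68.0 ± 1.34 CPM in shCtrl (SD, n = 2 each). An SD of 2 libraries is a rough measure, and CCNC was singled out here as the member with the smallest p. The fitted fold was 0.659, a log2 fold change of -0.60 ± 0.11 (SE). Its p was 0.00182 with edgeR and its adjusted p over all genes was 0.32, so it did not pass the threshold there, and it passed with DESeq2 (adjusted p = 0.00866). Of all tested genes, 0.556% had a smaller edgeR p. In bulk RNA, less of the transcript in each cell and fewer cells that hold it cannot be told apart. Over all alternatives the log2 fold change of CCNC lay between -0.63 and -0.56, and its adjusted p ran from 5.19e-05 without shRPRD1B 1 to 0.9999 without either control library. CCNC (ENSG00000112237.13) lies on the minus strand of chromosome 6 at 99542380 to 99568973 in GRCh38, and 528 of its 5765 exon bases overlap an antisense RNA in GENCODE 29. The strand setting of the counting is not given, so reads from the 2 strands cannot be told apart there.

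For the kinases that cyclin C pairs with, the groups overlapped. CDK8 had 39.3 and 52.7 CPM in shRPRD1B and 41.3 and 40.0 CPM in shCtrl. Here the control libraries lay between the knockdown libraries, and the log2 fold change was 0.18 (95% interval -0.24 to 0.59, edgeR adjusted p = 0.795). CDK19, the paralogue that can take the place of CDK8, had 23.2 and 28.97 CPM in shRPRD1B and 28.2 and 29.8 CPM in shCtrl, with overlapping groups and a log2 fold change of -0.15 (-0.54 to 0.23, edgeR adjusted p = 0.805). Its value rested on shRPRD1B 1, since it was -0.32 without shRPRD1B 2 (edgeR adjusted p = 0.0415) and -0.00089 without shRPRD1B 1. These intervals still allow changes of moderate size in either direction. The ratio of CCNC to CDK8, in CPM, was 1.15 and 0.844 in shRPRD1B and 1.62 and 1.72 in shCtrl. The ratio of CCNC to CDK19 was 1.94 and 1.54 in shRPRD1B and 2.37 and 2.31 in shCtrl. Both ratios were lower in both knockdown libraries than in either control library, and with 2 libraries against 2 no exact permutation test can give a two-sided p under 0.333. The ratio of CDK8 to CDK19 was 1.69 and 1.82 in shRPRD1B and 1.46 and 1.34 in shCtrl.

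**Figure D2:**
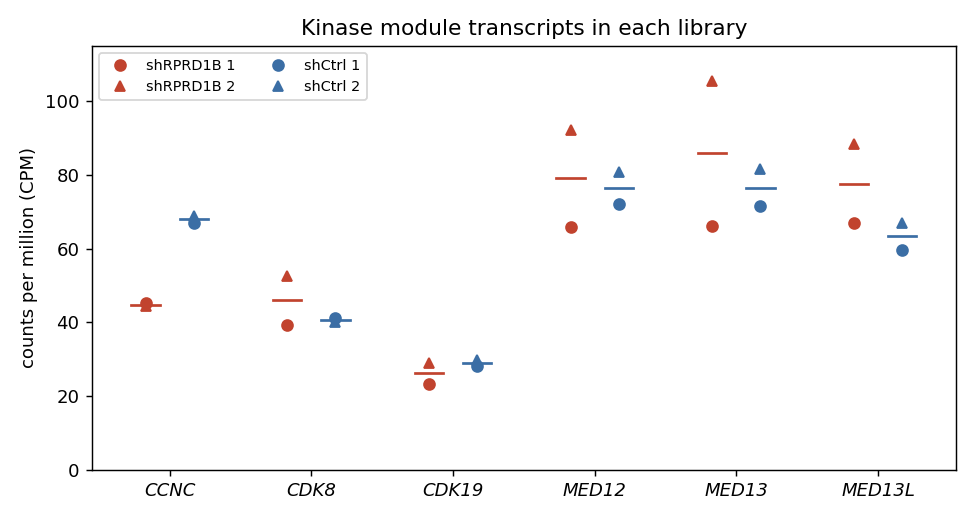
CPM of the 6 kinase module transcripts in each library, with shRPRD1B left of shCtrl, circles for library 1, triangles for library 2 and a line at the mean of 2. CCNC is the only one of the 6 whose knockdown points both lie below the control points, and for MED12, MED13 and CDK8 the knockdown points lie on both sides of the controls.

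The large subunits of the kinase module varied between the knockdown libraries more than between the groups. MED12, which switches on the kinase by binding cyclin C, had 65.9 and 92.1 CPM in shRPRD1B and 72.0 and 80.7 CPM in shCtrl (log2 fold change 0.05). MED13, which ties the module to the core, had 66.2 and 105.5 CPM in shRPRD1B and 71.5 and 81.5 CPM in shCtrl (0.17). For both genes the control libraries lay inside the range of the knockdown libraries. MED13L, the paralogue of MED13, had 67.0 and 88.3 CPM in shRPRD1B and 59.7 and 67.0 CPM in shCtrl (0.29, 95% interval -0.12 to 0.70). The upper control library of MED13L, at 66.98 CPM, all but touched the lower knockdown library, at 67.01 CPM. The median log2 fold change of the 6 kinase module genes was 0.11, and it was 0.17 over the 5 other than CCNC. Against the mean of the controls, the module's median was -0.21 in shRPRD1B 1, with 1 of 6 positive, and 0.32 in shRPRD1B 2, with 4 of 6 positive. The module's median thus turned with the knockdown library used, while the value of CCNC was -0.59 in shRPRD1B 1 and -0.61 in shRPRD1B 2.

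The sequence around a 6-base word in the 3′ UTR is shown for the 7 members that hold it, because an earlier analysis of these same libraries found that word, ACTAGC, more often in the 3′ UTRs of transcripts that were lower in shRPRD1B. The word was thus chosen on these data and its presence supports nothing by itself. The windows hold 26 bases of the GENCODE 29 transcript on its own strand, 5′ to 3′, with the word in capitals. In CCNC the word lies at chr6:99542966-99542971 on the minus strand, at base 584 of a 3′ UTR of 1175 bases.
CCNC: catggaagatACTAGCccagcctagc
CDK19: tctgaatgctACTAGCagcaccagcc
MED7: ctgtaaacccACTAGCtcagtctttt
MED8: tccaccactgACTAGCtgtgtgacct
MED21: ccacattttaACTAGCtatttcctgg
MED27: aattattcccACTAGCcagcggactg
MED28: agtggagttgACTAGCatcctaagga
The 7 members are 23.3% of the 30 tested, and the word is in 14.4% of the 13971 tested genes with a 3′ UTR in the annotation. Beside CCNC, the log2 fold changes of these members were -0.15 for CDK19, -0.15 for MED7, -0.09 for MED8, 0.06 for MED21, 0.07 for MED27 and 0.12 for MED28. Their median was -0.09, and it was 0.04 over the 23 tested members without the word, beside 0.00 (0.0039) over all 2017 tested genes with it and 0.02 over the 11954 without. Of the 7, 4 were negative and 3 positive, and only CCNC was beyond 0.2 in size.

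The promoters of the cyclin and its alternative kinases are shown because the results of the kinase module turn on these 3 genes. They come from RefSeq (GRCh38.p14), span 250 bases before to 50 after a transcription start and are written 5′ to 3′ on the gene's strand, with capitals for any of 7 words searched on both strands. The words were the TATA box as TATAAA, the CCAAT box as CCAAT, the E-box as CACGTG, a core of ETS sites as CCGGAAG, a core of YY1 sites as AAGATGGCG, the SP1 box as GGGGCGGGG and the CREB site as TGACGTCA, and none of them holds another. Where a gene had several starts, the one nearest to the start of its GENCODE transcript was taken. They lie at chr6:99568765-99569064 on the minus strand for CCNC, chr13:26253879-26254178 on the plus strand for CDK8 and chr6:110815420-110815719 on the minus strand for CDK19.
CCNC: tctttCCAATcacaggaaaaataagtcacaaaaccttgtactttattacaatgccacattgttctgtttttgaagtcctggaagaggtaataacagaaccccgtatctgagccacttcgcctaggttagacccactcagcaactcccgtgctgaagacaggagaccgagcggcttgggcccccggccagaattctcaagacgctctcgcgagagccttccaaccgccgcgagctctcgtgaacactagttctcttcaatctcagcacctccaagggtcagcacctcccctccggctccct
CDK8: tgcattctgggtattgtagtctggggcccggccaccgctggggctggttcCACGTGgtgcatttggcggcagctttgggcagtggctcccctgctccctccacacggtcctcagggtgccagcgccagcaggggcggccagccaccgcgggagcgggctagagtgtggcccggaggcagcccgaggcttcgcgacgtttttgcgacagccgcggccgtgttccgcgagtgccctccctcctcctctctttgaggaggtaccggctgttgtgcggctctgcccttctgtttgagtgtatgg
CDK19: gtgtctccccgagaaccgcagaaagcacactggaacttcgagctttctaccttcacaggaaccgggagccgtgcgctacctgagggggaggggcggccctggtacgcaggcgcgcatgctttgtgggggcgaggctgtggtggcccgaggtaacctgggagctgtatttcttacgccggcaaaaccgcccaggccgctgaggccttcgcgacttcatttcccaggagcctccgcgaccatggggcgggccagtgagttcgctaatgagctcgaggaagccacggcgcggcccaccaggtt
The window of CCNC holds 1 CCAAT and that of CDK8 1 E-box word, while none of the 7 words is in the window of CDK19 shown, which is 1 of 3 listed for that gene. Of all 35116 promoters in the table, 34.6% hold CCAAT and 7.26% hold CACGTG. GC content was 52.3% for CCNC, 67% for CDK8 and 64.7% for CDK19.

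Head module transcripts, which encode the part of Mediator that holds the polymerase and TFIIH in place, gave small and mixed differences. Of 7 head genes, 5 were tested, 2 with a positive and 3 with a negative log2 fold change, and their median was -0.09. MED8, which joins the neck to the movable jaw, had 42.4 and 43.6 CPM in shRPRD1B and 47.5 and 44.2 CPM in shCtrl (-0.09, edgeR adjusted p = 0.84). The knockdown libraries of MED8 lay just below the controls. MED11, a small subunit of the head, had 15.2 and 10.5 CPM in shRPRD1B and 15.1 and 14.8 CPM in shCtrl (-0.21, adjusted p = 0.807 with edgeR). Only shRPRD1B 2 was low, and without shRPRD1B 1 MED11 was at -0.50 (edgeR adjusted p = 0.00763), in the fit that called 29.1% of all tested genes, while without shRPRD1B 2 it was at 0.031. MED6, at 32.6 and 36.7 CPM in shRPRD1B and 31.0 and 35.4 CPM in shCtrl, and MED20, at 18.4 and 21.7 CPM in shRPRD1B and 21.4 and 21.2 CPM in shCtrl, overlapped between the groups.

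The remaining head genes had few reads. Low transcript levels and reads lost in counting cannot be told apart here, and neither was tested. MED17, the central subunit of the head, had 6.32 and 8.05 CPM in shRPRD1B and 5.53 and 7.40 CPM in shCtrl (log2 fold change 0.15, 95% interval -0.43 to 0.73), the lowest mean CPM of the 30 in either group, though MED31 was lower in shRPRD1B 2. In GENCODE 29, 2156 of its exon bases are shared on the same strand with the protein-coding gene AP001273.2, which had 0 counts in all 4 libraries, and the treatment of such shared reads is not given in the sources used here. MED18, which forms the movable jaw with MED20, had 0 and 4 counts in shRPRD1B and 6 and 2 counts in shCtrl. MED22, the partner of MED11, had 3 and 4 counts in shRPRD1B and 3 and 4 counts in shCtrl. In GENCODE 29 MED18 shares 0 exon bases with other genes, and MED22 shares 476, all on the other strand. These counts did not pass the filter with a minimum count of 10, so MED18 and MED22 were not tested and no fold is given.

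Middle module transcripts split in the same way. The 9 genes were all tested, 4 positive and 5 negative, with a median of -0.04. MED1, through which nuclear receptors bind Mediator, had the highest fold change of all members, with 91.7 and 137.7 CPM in shRPRD1B and 82.5 and 91.2 CPM in shCtrl (log2 fold change 0.40, 95% interval -0.11 to 0.91, edgeR adjusted p = 0.702). The library shRPRD1B 2 alone stood well above the controls, since shRPRD1B 1 was within 1 CPM of shCtrl 2. MED4, which pairs with MED9 in the module, had 25.9 and 25.7 CPM in shRPRD1B and 24.1 and 23.7 CPM in shCtrl (0.11, adjusted p = 0.825 with edgeR). Both knockdown libraries of MED4 lay above both controls by a small margin. MED10 had 36.6 and 36.0 CPM in shRPRD1B and 38.8 and 39.5 CPM in shCtrl (-0.11), and MED31 had 7.89 and 7.28 CPM in shRPRD1B and 8.34 and 7.91 CPM in shCtrl (-0.10). These were lower in both knockdown libraries, again by small amounts, and 1227 of the 2103 exon bases of MED31 overlap TXNDC17 on the other strand, so its reads are uncertain.

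Further middle members overlapped between the groups. MED26, which recruits elongation factors, had 9.34 and 10.4 CPM in shRPRD1B and 10.4 and 9.94 CPM in shCtrl (log2 fold change -0.04), and 2235 of its 5330 exon bases are shared with genes on the same strand. MED7 and MED21, which form the hinge of the module, gave -0.15 and 0.06. MED19 gave -0.13 and MED9 gave 0.13. MED14, the scaffold that joins head, middle and tail, had 99.6 and 141.8 CPM in shRPRD1B and 97.0 and 100.5 CPM in shCtrl (0.29, 95% interval -0.17 to 0.75, edgeR adjusted p = 0.73). As with MED1, its high value was that of shRPRD1B 2, and shRPRD1B 1 lay between the controls.

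Tail module transcripts, the landing sites of many activators, had the smallest median absolute log2 fold change of the modules. It was 0.05 in the tail, 0.09 in the head, 0.11 in the middle and 0.17 in the kinase module. All 9 tail genes were tested, 5 positive and 4 negative, with a median of 0.02 and values between -0.07 and 0.27. The head values ran from -0.21 to 0.15, a range of about the same width. MED24, which joins MED23 and MED16 to the complex, had the most reads of all members, with 198.5 and 223.2 CPM in shRPRD1B and 212.8 and 209.6 CPM in shCtrl (log2 fold change -0.0026). MED16 had 123.2 and 122.2 CPM in shRPRD1B and 126.1 and 116.4 CPM in shCtrl (0.02), and MED15, the target of SREBP factors, had 89.9 and 81.3 CPM in shRPRD1B and 86.5 and 86.3 CPM in shCtrl (-0.01). For these genes the groups overlapped and the 95% intervals stayed within 0.3 of 0 on the log2 scale. MED23, which binds ELK1 and the adenoviral E1A protein, had 52.2 and 65.8 CPM in shRPRD1B and 46.9 and 50.8 CPM in shCtrl (0.27, -0.10 to 0.65, edgeR adjusted p = 0.714). MED28 had 122.2 and 130.2 CPM in shRPRD1B and 118.9 and 112.9 CPM in shCtrl (0.12), and 3520 of its exon bases overlap FAM184B on the other strand. In MED23 and MED28 both knockdown libraries lay above both controls. The size of the MED23 value turned on the library, at 0.43 without shRPRD1B 1 (edgeR adjusted p = 0.000816) and 0.098 without shRPRD1B 2. MED25, which binds the VP16 activation domain, gave 0.04, MED27 0.07, MED29 -0.05 and MED30 -0.07.

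Transcript length moved with the differences between the knockdown libraries. Of the 9 tested members with a transcript over 5000 bases, 8 had a positive log2 fold change. Their median against the controls was 0.01 in shRPRD1B 1, with 5 of 9 positive, and 0.43 in shRPRD1B 2, with 8 of 9 positive. Over the 3608 tested genes of that length class the median was -0.00018 in shRPRD1B 1 and 0.20 in shRPRD1B 2. Of these genes, 2425 had a positive log2 fold change, and 1803 were positive in shRPRD1B 1 and 2545 in shRPRD1B 2. The 9 members under 2000 bases had medians of -0.04 in shRPRD1B 1 and -0.12 in shRPRD1B 2, and the 6845 genes of that class -0.01 and -0.17. Long transcripts were thus relatively high and short ones relatively low in shRPRD1B 2, for Mediator genes and for genes at large. Across genes, Spearman's rho between length and the log2 difference from the controls was 0.00734 in shRPRD1B 1 and 0.646 in shRPRD1B 2 over the 30 members, and 0.0387 and 0.257 over the 18958 tested genes with a length. Between the control libraries, shCtrl 2 minus shCtrl 1, rho was 0.523 over the members and 0.171 over all. These are descriptions over genes that share libraries and are not independent, and the part of length in the fold changes was not tested other than by the correction given next.

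**Figure D3:**
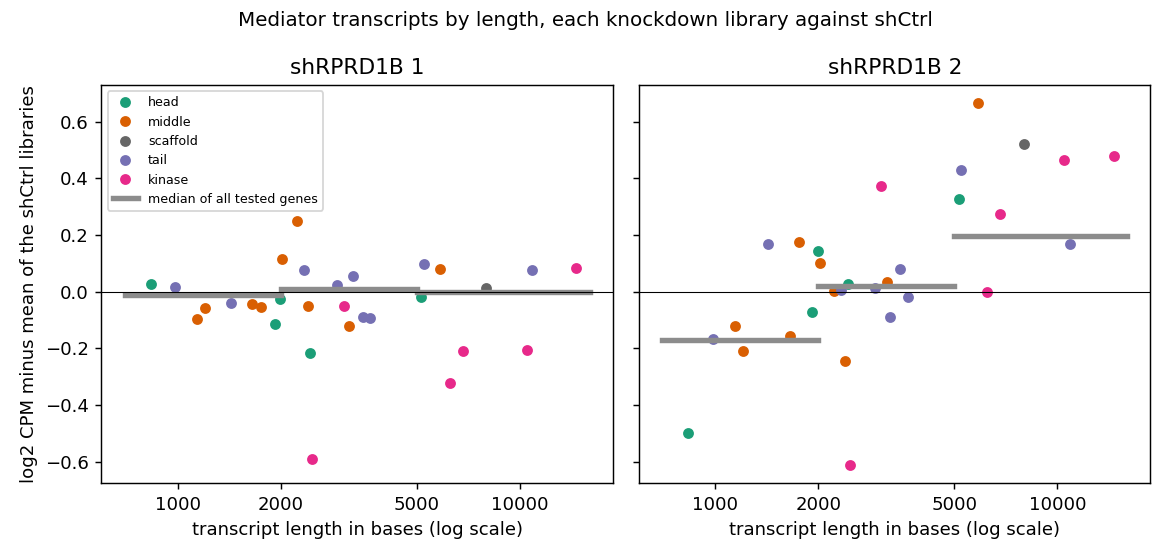
Log2 CPM minus the mean of the shCtrl libraries for each tested Mediator transcript against its length in bases (log scale), for shRPRD1B 1 and shRPRD1B 2, with grey lines for the median of all tested genes in 3 length classes. In shRPRD1B 2 the grey lines climb with length, from -0.17 under 2000 bases to 0.20 over 5000 bases, while in shRPRD1B 1 they stay near 0, and CCNC is the lowest point in both.

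With a correction for length and GC content in each library, 8 of the 9 members over 5000 bases moved closer to 0, and CCNC hardly moved. The correction takes out the trend with length in each library, so a move of long members was built into it. All tested genes of 2000 to 5000 bases, the class of CCNC, had medians of 0.01 in shRPRD1B 1 and 0.02 in shRPRD1B 2. The length part of the correction had little to remove there, so the small move of CCNC tests little. MED1 gave 0.29 with the correction against 0.40 without it, MED14 0.18 against 0.29, MED13L 0.15 against 0.29 and MED23 0.21 against 0.27. CDK19 was the one long member that moved away from 0, with -0.24 against -0.15. CCNC, whose transcript has 2473 bases, gave -0.56 with the correction against -0.60 without it (edgeR adjusted p = 0.156 with the correction). The median of the kinase module was 0.0086 with the correction against 0.11 without it.

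Scaled for length, the subunits of 1 complex differed widely in transcript level. The levels are in TPM, relative transcript numbers computed from counts over the length of 1 GENCODE transcript per gene, and the true mix of isoforms is not known, so a gene with a long annotated 3′ UTR such as MED28 may stand too low. MED24 was highest, with 132.9 ± 19.3 TPM in shRPRD1B and 126.1 ± 1.41 TPM in shCtrl (SD, n = 2 each here and below). The next in the control order were MED16, at 91.8 ± 5.20 TPM in shRPRD1B and 86.1 ± 2.97 TPM in shCtrl, and MED25, at 81.0 ± 2.24 TPM in shRPRD1B and 74.8 ± 1.14 TPM in shCtrl. Tail genes thus took the top 3 places. At the low end stood MED26, with 6.82 ± 0.943 TPM in shRPRD1B and 6.64 ± 0.0488 TPM in shCtrl, and MED17, with 3.07 ± 0.711 TPM in shRPRD1B and 2.62 ± 0.590 TPM in shCtrl. Both of these share exon bases with other genes on the same strand. The control level of MED24 was 48.2 times that of MED17 as counted. As said above, a low transcript level of MED17 and reads lost in counting cannot be told apart, so this ratio is uncertain.

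Within the kinase module the cyclin was the most abundant transcript in both groups. CCNC had 39.6 ± 2.07 TPM in shRPRD1B and 57.1 ± 2.37 TPM in shCtrl. CDK8 had 33.1 ± 8.83 TPM in shRPRD1B and 27.6 ± 0.00731 TPM in shCtrl, and CDK19 had 9.19 ± 1.996 TPM in shRPRD1B and 9.66 ± 0.580 TPM in shCtrl. In shRPRD1B 2 the levels of CCNC and CDK8 were close, at 41.1 and 39.4 TPM, whereas in shRPRD1B 1 they were 38.2 and 26.9 TPM. MED12 had 25.6 ± 7.56 TPM in shRPRD1B and 23.4 ± 2.40 TPM in shCtrl, MED13 had 18.1 ± 6.95 TPM in shRPRD1B and 15.2 ± 1.74 TPM in shCtrl, and MED13L had 11.7 ± 2.98 TPM in shRPRD1B and 9.01 ± 0.927 TPM in shCtrl. Of the 29 neighbouring pairs in the order of all tested members, 10 had ranges over the 4 libraries that did not overlap and 19 had ranges that did, among them MED9 and MED1, MED29 and MED21, and CDK19 and MED13L.

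**Figure D4:**
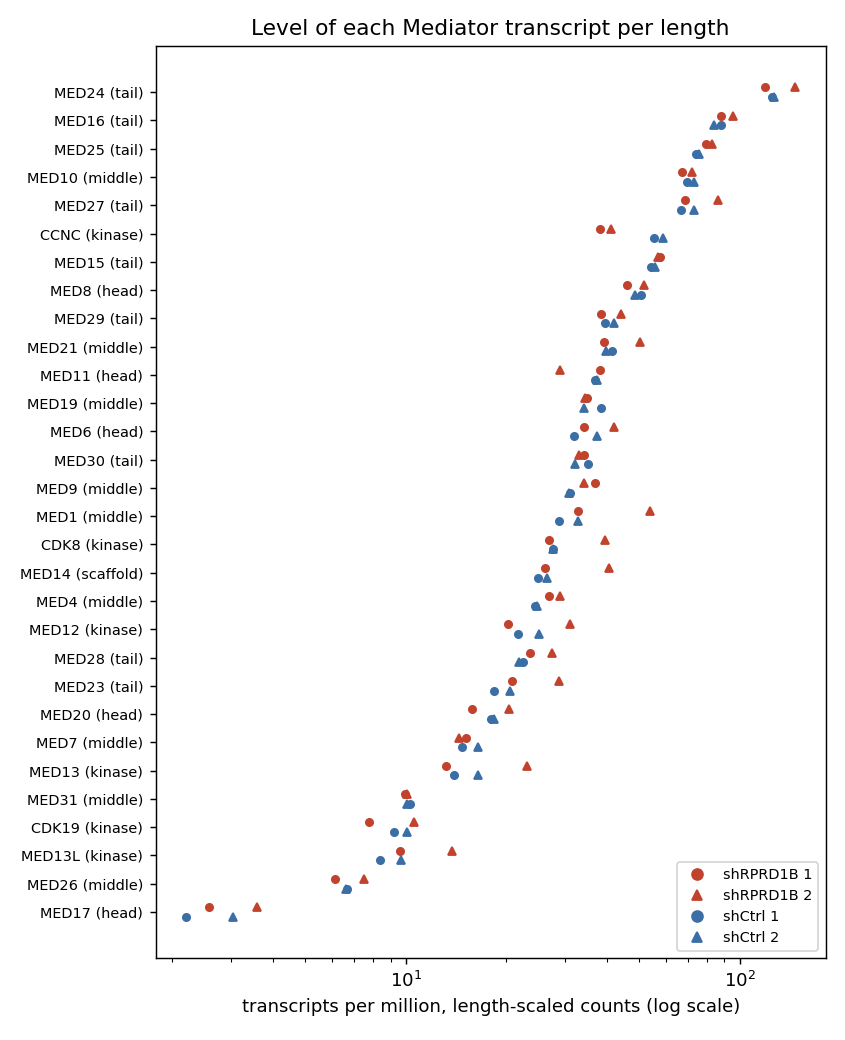
Level of each tested Mediator transcript in TPM (log scale) in each library, ordered by the shCtrl mean, with shRPRD1B drawn above shCtrl within each row, circles for library 1 and triangles for library 2. CCNC is the only row in which both shRPRD1B points lie well to the left of the shCtrl points.

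Genes that work with Mediator were taken from fixed lists for comparison. The 19 partner genes were elongation factors recruited by MED26, cohesin subunits and its loader, coactivators, TBP and TFIIB, MED12L and FBXW7. All were tested and 13 were positive, as were 10257 of all 20319 tested genes. Of the partners edgeR called 0, where 0.0689% of all tested genes passed. DESeq2 also called 0, where it called 0.62% of all tested genes higher and 0.561% lower. At an unadjusted edgeR p under 0.05 there were 0 partners, against 7.49% of all tested genes. The median of the partners was 0.20, and by library it was -0.03 in shRPRD1B 1 and 0.37 in shRPRD1B 2. FBXW7, the ubiquitin ligase subunit that marks MED13 and MED13L for degradation, had 26.2 and 28.4 CPM in shRPRD1B and 22.1 and 21.9 CPM in shCtrl (log2 fold change 0.31, edgeR adjusted p = 0.674). TBP, the TATA-binding protein, had 52.4 and 56.7 CPM in shRPRD1B and 48.0 and 44.7 CPM in shCtrl (0.23, adjusted p = 0.698 with edgeR). Both knockdown libraries were above both controls for these genes. Among the 9 genes of other transcription kinases, 6 were positive. Of these genes edgeR and DESeq2 called 0, and 1 had an unadjusted edgeR p under 0.05, beside the shares of all tested genes just given. The median of the 9 was 0.26. By library it was -0.09 in shRPRD1B 1, with 4 of 9 positive, and 0.21 in shRPRD1B 2, with 6 of 9 positive. MNAT1, the assembly factor of the CDK-activating kinase, was their only gene at an unadjusted p under 0.05, with 25.2 and 24.0 CPM in shRPRD1B and 39.7 and 33.9 CPM in shCtrl (-0.58 ± 0.14 SE, edgeR adjusted p = 0.46).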

How the data were processed

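For each library the authors deposited 1 file of raw counts by gene identifier, all whole numbers. The submitters' processing notes name Trim Galore, HISAT2, featureCounts and hg38. Versions, annotation release, strand setting and the handling of shared or multi-mapping reads are not stated there or in the labels, so reads of overlapping genes are uncertain. Per the labels' protocols, poly(A) libraries were made with an Illumina kit by a service provider.

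Symbols were matched by identifier without version (62686 of 69222 matched). Positions, lengths and 3′ UTRs came from GENCODE 29 (1 transcript per gene) and promoters from RefSeq. The main test was edgeR 4.0.16 in R 4.3.3: robust quasi-likelihood fit, TMM factors, filterByExpr with a minimum count of 10, the group as only term, adjusted over all 20319 tested genes. Log2 CPM used a prior count of 2. Alternatives were DESeq2 1.42.0, limma voom 3.58.1, other scalings, filters and gene sets, a replicate term, each library left out, and a length and GC correction (mgcv 1.9.3). The fit was tested on simulated data, where it recovered 63% of 100 changes of 2-fold and 98% of 100 changes of 4-fold. Of its 186 calls there, 25 were false. The simulation gave both groups the same spread per gene, whereas the real shRPRD1B libraries differed more from each other than the shCtrl libraries did.

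Members, modules and lists were chosen with earlier results of these data known. Named were all members, the RPRD1B check, and from each related list genes at an unadjusted p under 0.05, at most 4, or else the 2 with the smallest p. Totals ran from 47732913 to 65572391 counts.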

Additional observations from a re-analysis of the deposited data

How the results depend on the processing

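The value of CCNC kept its direction in all 14 alternatives, and of the 30 members 15 kept theirs in all of them. Called genes, 6 higher and 8 lower in the main fit, were 126 and 114 with DESeq2, 0 and 0 with limma voom, 23 and 17 with no low-count filter, 0 and 0 with at least 5 CPM in 2 libraries, 17 and 21 with the length and GC correction, and from 12 to 3139 and from 36 to 3096 when 1 library was left out. The labels give the groups the same replicate numbers, but same-numbered libraries did not deviate together (correlation 0.0134 over genes), and with the replicate number as a block the calls were 85 and 56, with 0 Mediator members. Called members were 1 with DESeq2 and 0 to 9 when 1 library was left out. The median of all members ran from -0.038 to 0.034 with 1 library left out, that of the head from -0.095 to 0.031, of the middle from -0.072 to 0.0046, of the tail from -0.014 to 0.027 and of the kinase module from -0.21 to 0.32. With the length and GC correction the median was -0.049 for the head and 0.037 for the tail, and the tail median was -0.0089 with upper-quartile factors and 0.0062 with at least 5 CPM in 2 libraries.

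Direction turned with the correction for MED12 (-0.030), MED15 (0.011), MED28 (-0.0020) and MED30 (0.037), with upper-quartile factors for MED16 (-0.0089), and for MED24 with library size alone (0.0010) or no filter (0.0018). With 1 library left out the range held both signs for CDK8 (-0.046 to 0.38), MED6 (-0.033 to 0.16), MED11 (-0.50 to 0.031), MED12 (-0.21 to 0.27), MED13 (-0.21 to 0.47), MED15 (-0.085 to 0.060), MED16 (-0.040 to 0.076), MED17 (-0.044 to 0.37), MED20 (-0.21 to 0.031), MED21 (-0.054 to 0.18), MED24 (-0.087 to 0.082), MED26 (-0.12 to 0.037), MED27 (-0.038 to 0.17) and MED30 (-0.17 to 0.019). With 1 library left out, values that kept their sign ran from 0.080 to 0.67 for MED1, from 0.014 to 0.52 for MED14, from 0.083 to 0.48 for MED13L, from 0.098 to 0.43 for MED23 and from -0.32 to -0.00089 for CDK19. The cause was not tested. Placing MED27 to MED30 in the head gave medians of -0.05 for the head and 0.02 for the tail.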

Other observations

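Across the 29 RefSeq promoters listed for 24 of the 32 Mediator genes, some words were more frequent than across all 35116 promoters, as a description with no test. The ETS core CCGGAAG was in 27.6% of the Mediator promoters and 10.3% of all, in the promoters of MED7, MED11, MED15, MED17, MED18, MED29 and MED31. The YY1 word AAGATGGCG was in 13.8% and 1.75%, in those of MED1, MED16, MED18 and MED25. CCAAT was in 34.5% and 34.6%, and TATAAA in 6.9% and 11.5%. The median ratio of observed to expected CpG was 0.82 over the Mediator promoters and 0.579 over all, at a median GC content of 58% and 58.7%.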
